A study of Mus musculus with 12 samples.

Results

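The genes described here are 39 genes of programmed cell death and of the p53 response, read on arrays of the mouse geniculate ganglion, the cranial ganglion that holds the cell bodies of taste neurons. They were chosen by name and fall into 3 blocks, the BCL2 family with 12 genes, the caspases with their partners and death receptors with 11, and p53 with its regulators and targets with 16. Each gene was read on its brightest probe set, the one with the highest mean log2 intensity over all 12 arrays, and 37 of the 39 were measured, out of 18193 genes in all. Bax and Trp53 are not analysed here, because no probe set had either of them as its only gene symbol. Probe sets with several symbols were not assigned to a gene. The 37 genes had 87 probe sets, 14 genes with 1 and 23 with several.

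The arrays were Affymetrix mouse arrays hybridized with amplified total RNA from ganglia of embryos at embryonic day 14.5, with 3 arrays in each of 4 groups. Wild-type and BDNF knockout embryos had the C57BL/6J background, and wild-type and NT4 knockout embryos had a 129 background. Each neurotrophin line thus had its own wild type, and strain and line cannot be told apart. The study's design asks whether the loss of BDNF and the loss of NT4 change gene expression in different ways. The sources used here do not give how the null alleles were made, whether wild types were littermates, or how many embryos went into an RNA sample. The labels call the arrays of a group biological replicates, and the p-values measure the spread between these samples.

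BDNF and NT4 act through the receptor TrkB and keep geniculate neurons alive during development. A neuron that loses such support dies through the mitochondrial pathway. BH3-only proteins block the survival members of the BCL2 family, BAX and BAK then open the mitochondrial outer membrane, and released cytochrome c assembles with APAF1 and caspase 9 into the apoptosome, which starts the caspase cascade. p53 is a transcription factor that can feed this pathway by raising Bbc3, Pmaip1 and Bax, and it also raises genes that stop the cell cycle, among them Cdkn1a. Many steps of the pathway act on proteins, by cleavage or phosphorylation, and are not seen in RNA.

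Array medians ran from 168 to 201, and 5.87% to 7.91% of the probe sets of an array read under 20. Arrays of a group correlated at 0.967 to 0.985 on the log2 scale and arrays of different lines at 0.919 to 0.945. Bdnf, on chromosome 2, read 243, 169 and 288 in the BDNF wild types and 25.2, 26.9 and 23.3 in the BDNF knockouts, and it fell by 3.18 on the log2 scale (SE 0.25, limma, adjusted p = 0.00176). That call was lost when only the 6 arrays of the line were fitted (adjusted p = 0.142). These values are from the dimmer Bdnf probe set, with a mean log2 intensity of 7.35, and not from the brightest, at 7.86. The brightest read 262 ± 16.2 in BDNF wild types and 315 ± 35.3 in BDNF knockouts (SD, n = 3 each). All its knockout arrays lay above the wild types, a log2 change of 0.27 (−0.11 to 0.64), so it did not follow the knockout label. The check of the label thus rests on the dimmer probe set alone. The probe set of Ntf5, the gene for NT4, was dim in the NT4 line, at 33.8, 42.8 and 46.6 in the wild types and 37.2, 42.3 and 36.2 in the knockouts. In the BDNF line it was brighter, at 125 ± 19.3 in wild types and 137 ± 17.3 in knockouts (SD, n = 3 each). The NT4 wild types thus lacked the signal seen in the other line, and the probe set checks nothing. The Y-linked gene Eif2s3y read 22.1 in BDNF wild-type replicate 2 and 15.9 in NT4 wild-type replicate 2, against 206 to 659 on the other arrays, and calls between the wild types that change without these 2 arrays are given below. The 7 measured neuron markers of 8 summed to between 56981 and 68810 on every array, a sum led by the brightest of them, and their median log2 change was −0.03 in the BDNF knockout and 0.00 in the NT4 knockout. Pou4f1, a transcription factor of sensory neurons, stood apart from that sum. It read 4446, 4916 and 4968 in BDNF wild types and 2886, 3590.4 and 3974 in BDNF knockouts, all lower, a log2 change of −0.47 (95% interval −0.80 to −0.13, adjusted p = 0.566 by limma). In the NT4 line it read 1874, 1602 and 1747 in wild types and 1567, 1799 and 2115 in knockouts, and the difference between the wild types was −1.46 (adjusted p = 6.72e-05 by limma).

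Promoter windows of the members were searched for letters that match a p53 half-site and the motifs of stress-activated factors. RefSeq windows of assembly GRCm38.p6 were found for 35 of the 39 members, 46 windows in all, and the 250 bases before each listed start were searched on both strands. The p53 half-site, which occurs as a pair in a full p53 element, was matched in 6 of the 16 windows of the p53 block (37.5%), those of Aen, Ccng1, Cdkn1a, Ei24, Mdm2 and Trp53, and in 7.13% of all 32851 promoter windows. In the BCL2 family it was matched in 1 of 17 windows, that of Bax, and in the caspase block in 0 of 13. The cyclic AMP response element TGACGTCA was found before Btg2, Plk2 and Cycs, 3 of 46 windows against 1.55% of all. The ATF and JUN motif TGATGTAA stood before Hrk alone among the members, against 0.965% of all windows. A pair of CATG cores with 6 bases between them was found before Cdkn1a alone among the members, against 0.490% of all windows, and that match overlaps 1 of the 2 half-sites there. A match is a description of letters and not a bound site. The sequences of Hrk, Cdkn1a, Plk2 and Btg2 are examples of windows with TGATGTAA, TGACGTCA or the pair of CATG cores. Capitals mark the motif, each sequence runs 5′ to 3′ on the strand of its gene, and positions count from the listed start.
Hrk, chr5:118169564-118169763, plus strand, TGATGTAA at −114: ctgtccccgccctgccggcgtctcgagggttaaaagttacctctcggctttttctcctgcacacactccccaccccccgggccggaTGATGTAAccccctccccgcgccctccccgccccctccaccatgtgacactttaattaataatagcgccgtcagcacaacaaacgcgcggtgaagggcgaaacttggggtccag
Cdkn1a, chr17:29090779-29090978, plus strand, CATG cores at −48: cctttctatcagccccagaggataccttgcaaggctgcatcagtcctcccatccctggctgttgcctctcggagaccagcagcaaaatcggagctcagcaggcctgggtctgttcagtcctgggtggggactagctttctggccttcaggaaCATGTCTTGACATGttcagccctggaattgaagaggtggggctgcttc
Plk2, chr13:110394844-110395043, plus strand, TGACGTCA at −62: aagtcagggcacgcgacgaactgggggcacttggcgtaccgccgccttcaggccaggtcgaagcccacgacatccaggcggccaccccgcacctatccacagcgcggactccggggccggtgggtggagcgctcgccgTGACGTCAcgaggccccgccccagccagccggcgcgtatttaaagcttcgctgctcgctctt
Btg2, chr1:134079156-134079355, minus strand, TGACGTCA at −166: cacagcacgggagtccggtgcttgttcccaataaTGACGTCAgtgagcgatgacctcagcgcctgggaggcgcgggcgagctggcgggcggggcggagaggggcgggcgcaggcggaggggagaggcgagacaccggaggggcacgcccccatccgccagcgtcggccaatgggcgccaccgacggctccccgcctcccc

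In neither knockout did a member pass the threshold of an adjusted p under 0.05 by limma. In the BDNF knockout 0 of 37 passed, against a background of 0.0220% of all genes, and 0 had an unadjusted p under 0.05, against 6.09%. In the NT4 knockout 0 of 37 passed, against 0.00550%, and 1 had an unadjusted p under 0.05, against 4.63%. That gene was Gtse1, a p53 target of dividing cells. By the authors' own criteria also, the brightest probe sets of 0 members were on either deposited list, against 1.55% and 1.40% of all genes. The ganglion is a mixture of neurons, glia and other cells, so in all these values fewer cells of a type and less RNA per cell cannot be told apart.

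The changes that were measured were small. In the BDNF knockout 15 members were higher and 22 lower, with a median log2 change of −0.03 beside −0.02 over all genes. In the NT4 knockout 20 were higher and 17 lower, with a median of 0.04 beside 0.03. The sign of the NT4 median turned with the scaling, to −0.0172 after quantile scaling and −0.0712 after centring. The 95% interval of the change lay between −1 and 1 on the log2 scale for 35 members in the BDNF knockout, against 85.0% of all genes, and for 34 in the NT4 knockout, against 86.3%. The exceptions were Perp and Pmaip1 in both lines and Casp8 in the NT4 line. For these, a change of 1 on the log2 scale lies inside the interval.

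**Figure D1:**
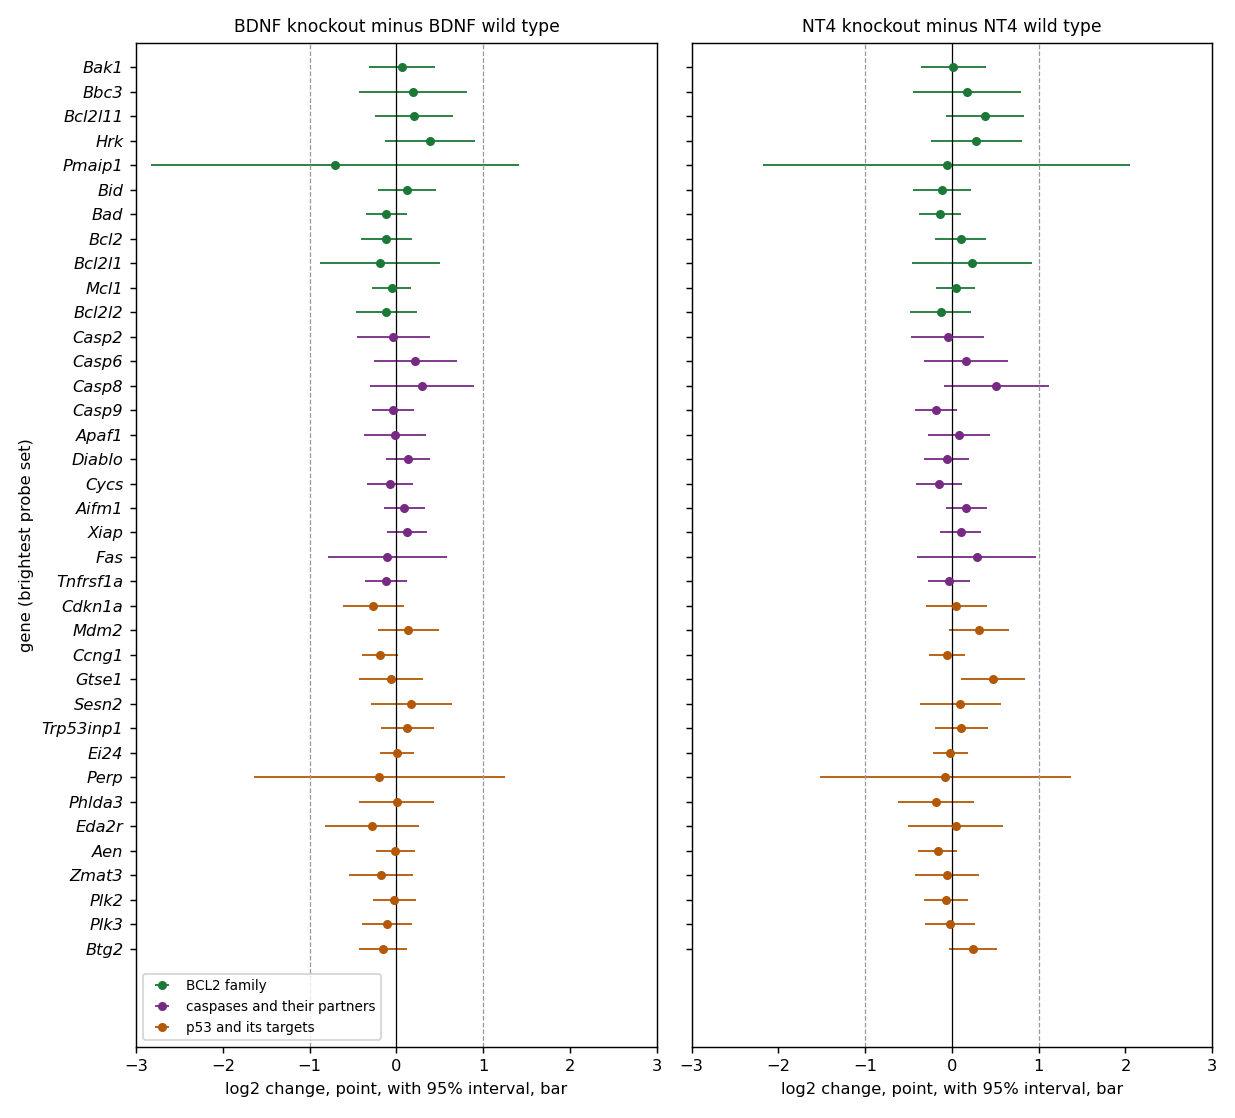
Log2 change of each of the 37 measured members in the BDNF knockout (left) and the NT4 knockout (right) against the wild type of the same line. Points are limma estimates from 3 arrays a group, bars their 95% intervals and dashed lines log2 changes of −1 and 1. Nearly all points lie close to 0, the interval of Gtse1 in the NT4 knockout clears 0, and Pmaip1 and Perp have the widest bars.

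Some BH3-only genes, Hrk and Bcl2l11 among them, are known to be raised in cultured sympathetic neurons when trophic support is withdrawn. Of the 6 BH3-only genes here, 4 were higher on average in the BDNF knockout and 3 in the NT4 knockout. Hrk (1439854_at, chromosome 5), whose product binds the survival proteins BCL2 and BCL2L1, read 827, 491 and 668 in the BDNF wild types and 980.2, 799 and 773 in the BDNF knockouts. The knockout mean was higher, but the brightest wild-type array lay above the lower knockout arrays. The log2 change was 0.39 (95% interval −0.14 to 0.91, unadjusted p = 0.131, adjusted p = 0.858 by limma). In the NT4 line the values were 654, 629 and 492 in wild types and 529, 787 and 878 in knockouts, a log2 change of 0.28 (−0.24 to 0.81). The second Hrk probe set, 1450366_at, is described after its values were seen. It read 197, 224 and 175 in NT4 wild types and 296, 294 and 290.4 in NT4 knockouts, with no overlap. Its log2 change was 0.57 in the NT4 knockout (0.19 to 0.95, adjusted p = 0.838 by limma) and 0.39 in the BDNF knockout (0.01 to 0.76, adjusted p = 0.739), where 249, 252 and 342 stood against 395, 293 and 412. In the authors' deposited table for NT4 this probe set has a signed fold of 1.48 and an unadjusted p of 0.0197.

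Bcl2l11 encodes BIM, a BH3-only protein that binds all the main survival members. Its probe set 1456005_a_at read 1199, 879 and 1324 in NT4 wild types and 1260.3, 1716 and 1432 in NT4 knockouts. The groups overlapped in 1 knockout array, and the log2 change was 0.38 (−0.07 to 0.83, adjusted p = 0.904 by limma). In the BDNF line 1275, 1715 and 1323 stood against 1806, 1824 and 1344, a log2 change of 0.20 (−0.24 to 0.65). The other 4 probe sets of the gene differed by −0.30 to 0.40 in the BDNF knockout and by −0.43 to 0.54 in the NT4 knockout. Bcl2l11 and Bcl2l1 lie on chromosome 2, as Bdnf does.

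Bad, whose product is held inactive by phosphorylation while growth factors signal, was measured tightly. It read 2328, 2205 and 2262 in BDNF wild types and 2129.9, 2154 and 1988 in BDNF knockouts, so the groups did not overlap and the knockouts were lower. The log2 change was −0.12 (−0.36 to 0.12, adjusted p = 0.949 by limma). In the NT4 line it was −0.14 (−0.37 to 0.10), from 2244, 2573 and 2152 to 2219.5, 2195 and 1925, with overlap. Bbc3, the gene for the p53-induced killer PUMA, was 444 ± 61.0 and 514 ± 131 in the BDNF line and 348 ± 48.1 and 411 ± 149 in the NT4 line (SD, n = 3 each), wild type first, and overlapped in both. Bid, which links death receptors to mitochondria, differed by 0.12 and −0.12 on the log2 scale in the BDNF and NT4 knockouts. Pmaip1, the gene for NOXA, was too dim to read, at 1.85 to 37.6 in the BDNF line and 40.4 to 82.7 in the NT4 line, with intervals of −2.83 to 1.41 and −2.18 to 2.06. Bak1, the membrane-opening killer, differed by 0.06 and 0.02 on its brightest probe set. Its dimmer probe set 1425716_s_at, seen among all probe sets of the members, was 278 ± 23.7 in BDNF wild types and 393 ± 84.9 in knockouts (SD, n = 3 each), a log2 change of 0.48 (0.06 to 0.91, adjusted p = 0.681 by limma).

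The survival members hold the killers in check. Mcl1, the gene for a short-lived survival protein, was 5454 ± 400.0 in BDNF wild types and 5241 ± 177 in knockouts, and 4791 ± 237 and 4936 ± 222 in the NT4 line (SD, n = 3 each). Its 6 probe sets differed by −0.20 to −0.03 in the BDNF knockout and by −0.01 to 0.12 in the NT4 knockout. Bcl2 read 4746, 4829 and 4242 in BDNF wild types and 4240.1, 4807 and 3754 in knockouts, a log2 change of −0.12 (−0.41 to 0.18), and 0.10 (−0.19 to 0.39) in the NT4 line. Bcl2l2 differed by −0.12 and −0.13, and Bcl2l1, the gene for BCL-XL, by −0.19 and 0.23 with wide intervals of −0.88 to 0.50 and −0.46 to 0.92. All 4 were lower on average in the BDNF knockout and 3 of 4 were higher in the NT4 knockout, with overlapping arrays in each case.

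**Figure D2:**
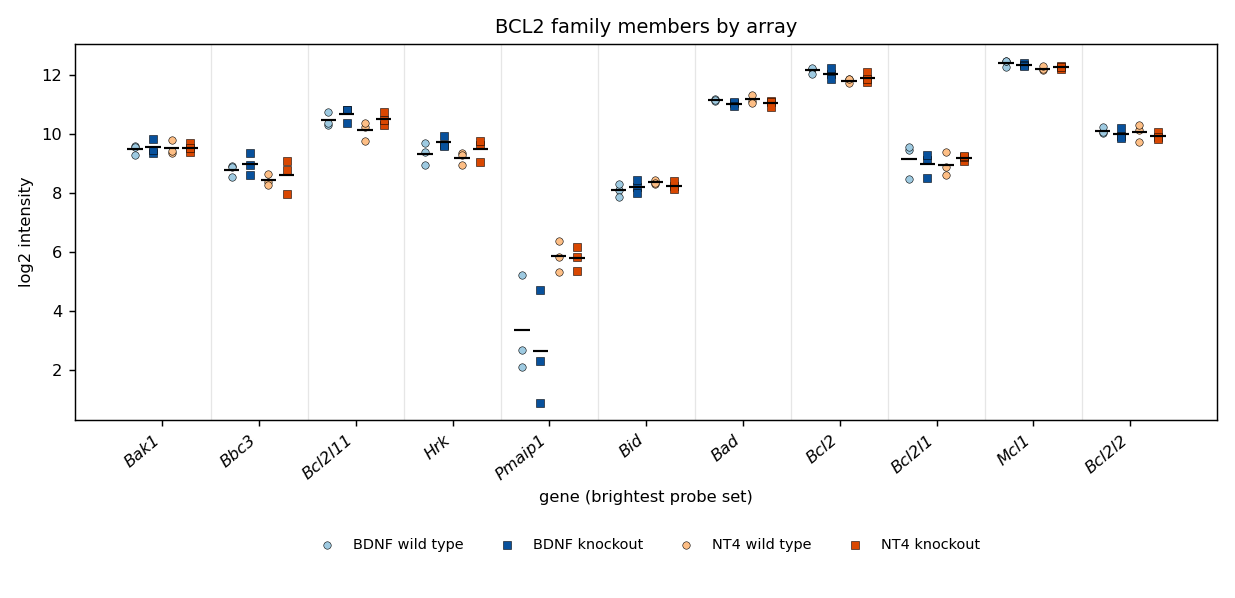
Log2 intensity of the 11 measured BCL2 family genes on each of the 12 arrays, brightest probe set, with a bar at the mean of each group of 3. Wild-type and knockout points of a line overlap for every gene except Bad in the BDNF line, and the NT4-line points of Pmaip1 lie above the BDNF-line points.

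Among the 11 caspases, partners and death receptors, 5 were higher and 6 lower in the BDNF knockout, and 6 higher and 5 lower in the NT4 knockout. Arrays did not overlap for 2 genes in the BDNF line, both lower, and for 2 in the NT4 line, 1 each way. Over all members the non-overlapping genes in the BDNF knockout were 0 above and 5 below, against 4.19% and 6.81% of all genes. In the NT4 knockout they were 3 above and 3 below, against 6.71% and 4.77%. In either direction the shares of all genes were 11.0% and 11.5%.

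Casp8, the initiator caspase of death receptors, read 144, 164 and 273 in NT4 wild types and 274, 281 and 244 in NT4 knockouts. Its wild-type replicate 3 was as bright as the knockouts, and the log2 change was 0.51 (−0.09 to 1.12, adjusted p = 0.904 by limma). In the BDNF line 186, 156 and 228 stood against 278, 271 and 163, a log2 change of 0.29 (−0.31 to 0.90). Casp9, the caspase of the apoptosome, read 2823, 2770.4 and 2572 in NT4 wild types and 2492, 2486 and 2236 in NT4 knockouts. All 3 knockout arrays were below the wild types, and the log2 change was −0.18 (−0.42 to 0.06, adjusted p = 0.923 by limma). The dimmer probe sets of Casp9 went the other way, by 0.10 and 0.16. In the BDNF knockout the gene differed by −0.04. Casp2 differed by −0.03 and −0.05, and Casp6, an executioner with a part in axon breakdown, by 0.22 and 0.16, with overlap in both lines.

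The factors that leave the mitochondria were bright and varied little within groups. Diablo, whose product frees caspases from XIAP, read 3870.0, 3764 and 3527 in BDNF wild types and 4332, 3829.9 and 4078 in BDNF knockouts. Wild-type replicate 1 lay inside the knockout range, and the log2 change was 0.13 (−0.12 to 0.39, adjusted p = 0.940 by limma). Its other probe set differed by −0.17. Cycs, the gene for somatic cytochrome c, was 6783, 6748 and 7045 in BDNF wild types and 6479, 6633 and 6411 in knockouts, which did not overlap although the log2 change was only −0.08 (−0.34 to 0.19). Aifm1, the gene for the mitochondrial flavoprotein AIF, did not overlap in the NT4 line, at 1783, 1794 and 1605 against 1996, 1868 and 1948, with a log2 change of 0.17 (−0.07 to 0.41). Apaf1, the scaffold of the apoptosome, differed by −0.01 in the BDNF knockout and by 0.08 in the NT4 knockout.

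Xiap, the direct inhibitor of caspases 3, 7 and 9, gave different answers on its 7 probe sets. On the brightest, 1437533_at, the BDNF wild types read 1222, 1015 and 1007 and the knockouts 1151, 1179.7 and 1174, a log2 change of 0.12 (−0.11 to 0.35). On 1421394_a_at, singled out after its values were seen, the wild types read 551, 616 and 540.2 and the knockouts 411, 341 and 329.6, with no overlap. There the log2 change was −0.66 (−0.95 to −0.38, unadjusted p = 0.000367, adjusted p = 0.234 by limma), and −0.22 (−0.50 to 0.06) in the NT4 knockout. The authors' deposited table for BDNF lists this probe set with a signed fold of −1.58 and an unadjusted p of 0.00391. The other 5 probe sets differed in the BDNF knockout by −0.40 to 0.03. Over all 87 probe sets of the members, 0 passed in the BDNF knockout, against 0.0178% of all probe sets, and 0 in the NT4 knockout, against 0.00444%. Unadjusted p-values were under 0.05 for 3 in the BDNF knockout, against 6.72%, and for 2 in the NT4 knockout, against 5.62%. On the authors' deposited lists stood 1 of the 87 for BDNF, against 1.48%, and 1 for NT4, against 1.49%.

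Of the death receptors, Tnfrsf1a, the main receptor for TNF, read 717, 740.3 and 750.1 in BDNF wild types and 701, 616 and 711 in BDNF knockouts. All knockout arrays were lower, and the log2 change was −0.12 (−0.37 to 0.12, adjusted p = 0.940 by limma). Fas was dim on all arrays, at 22.8 to 60.3, and differed by −0.11 and 0.29 with intervals that reached −0.79 and 0.97.

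**Figure D3:**
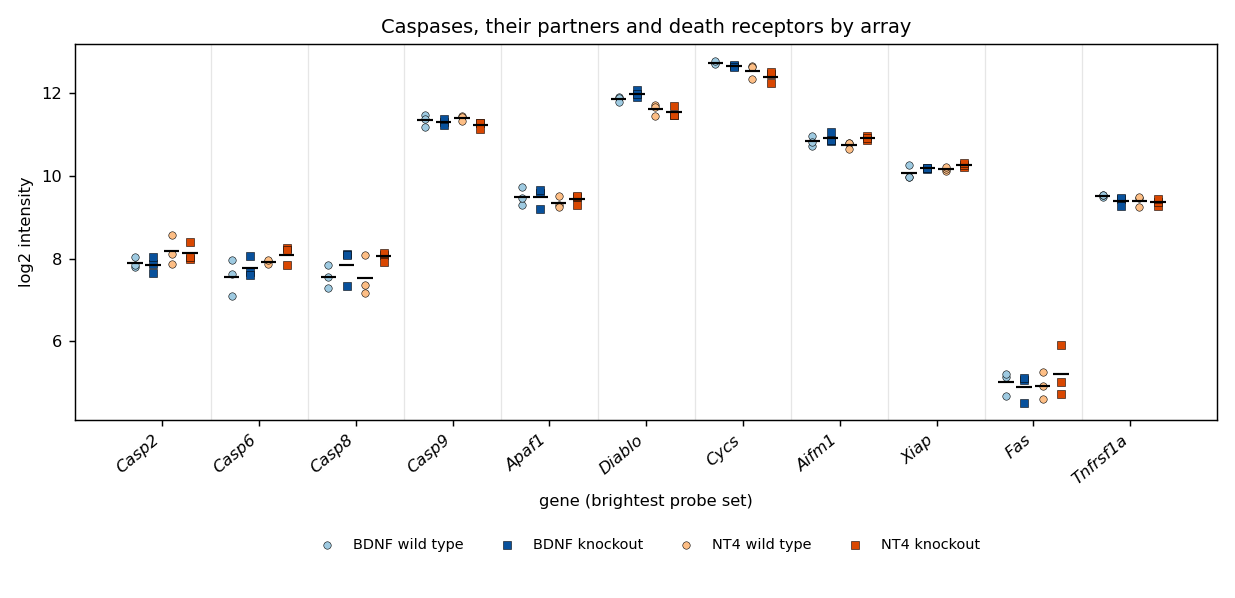
Log2 intensity of the 11 caspases, partners and death receptors on each of the 12 arrays, brightest probe set, with a bar at each group mean. BDNF knockout points of Cycs and Tnfrsf1a lie just under their wild types, NT4 knockout points of Casp9 lie under and those of Aifm1 above theirs, and Fas is dim throughout.

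In the p53 block 5 of 15 measured genes were higher and 10 lower in the BDNF knockout, with a median log2 change of −0.07, and 7 were higher and 8 lower in the NT4 knockout, with a median of −0.02. Cdkn1a, the cell cycle inhibitor p21 and the best known p53 target, read 1193, 1163 and 1528 in BDNF wild types and 1185, 1021 and 1004 in BDNF knockouts. Only knockout replicate 1 reached the wild-type range, and the log2 change was −0.27 (−0.62 to 0.08, adjusted p = 0.851 by limma). Its second probe set differed by −0.29. In the NT4 knockout the brightest probe set differed by 0.05. Ccng1, the cyclin G1 gene, read 3595, 3883 and 3850.4 in BDNF wild types and 3193, 3389 and 3341 in BDNF knockouts. All 3 knockout arrays were lower, and the log2 change was −0.19 (−0.40 to 0.02, unadjusted p = 0.0674, adjusted p = 0.789 by limma). The NT4 knockout differed by −0.06.

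Mdm2 encodes the ligase that degrades p53 and is itself a p53 target. On 1427718_a_at it read 1446, 1667 and 1410.5 in NT4 wild types and 2049.6, 1897 and 1676 in NT4 knockouts. The groups did not overlap, by a margin of 1667 against 1676, and the log2 change was 0.31 (−0.04 to 0.66, adjusted p = 0.898 by limma). Its other probe sets differed by −0.18 and 0.67. In the BDNF knockout the change was 0.14 (−0.21 to 0.49).

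Gtse1, whose product binds p53 and is made in dividing cells, read 121, 142 and 138 in NT4 wild types and 208, 153 and 201 in NT4 knockouts. All knockout arrays were higher, and the log2 change was 0.47 (0.11 to 0.84, unadjusted p = 0.0166, adjusted p = 0.852 by limma). In the BDNF line 198, 176 and 157 stood against 140.2, 173 and 196, a log2 change of −0.07 (−0.44 to 0.30). The NT4 wild types were the lowest group, with a mean of 134 beside 187 in their knockouts. In the BDNF line the means were 177 and 170, wild type first. All NT4 wild types lay below the BDNF wild types, a log2 difference of −0.40 (−0.77 to −0.03, adjusted p = 0.165 by limma). The probe set lies below the median brightness of the array. Of the cell cycle markers, 9 of the 9 measured were higher on average in the NT4 knockout, against 55.8% of all genes. Their median log2 change was 0.34, with 0 past the threshold. Their summed intensity was 8800 to 10245 on NT4 wild-type and 10478 to 13813 on NT4 knockout arrays, against 9454 to 12777 and 9777 to 12725 in the BDNF line. Their part in the Gtse1 difference was not tested.

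The remaining targets differed little between genotypes. Btg2, an antiproliferative early-response gene, read 399, 362 and 338 in BDNF wild types and 333, 324 and 328 in knockouts, all lower, and 362, 297 and 322 in NT4 wild types and 364, 352 and 447 in knockouts. The log2 changes were −0.15 (−0.43 to 0.13) and 0.24 (−0.04 to 0.52). Aen, a nuclease induced by p53, and Plk2, a polo-like kinase of neurons, lay lower on all NT4 knockout arrays, by log2 changes of −0.16 (−0.39 to 0.06) and −0.07 (−0.32 to 0.18). Ei24 varied least of all members, with a pooled SD within groups of 0.047 on the log2 scale, and differed by 0.01 in the BDNF knockout and −0.02 in the NT4 knockout. The stress genes Sesn2 and Trp53inp1 differed by 0.17 and 0.13 in the BDNF knockout and by 0.10 and 0.11 in the NT4 knockout. Phlda3, an inhibitor of AKT, differed by 0.00 and −0.18, Zmat3 by −0.17 and −0.06, and Plk3 by −0.11 and −0.02. Eda2r, a death receptor gene on the X chromosome, was dim at 29.3 to 71.2.

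Perp, a p53 target that also builds desmosomes in epithelia, had the widest spread of the bright members, with a pooled SD of 0.89 beside a median of 0.19 for the members and 0.22 for all genes. It read 842, 1298 and 959 in BDNF wild types, 310.2, 2156 and 1045 in BDNF knockouts, 942, 1972 and 2316 in NT4 wild types and 2903, 1131 and 1124 in NT4 knockouts. Its lowest and its highest array were both knockouts, and the intervals of its change ran from −1.64 to 1.25 and from −1.52 to 1.37. Of 5 epithelial genes looked up after this spread was seen, Krt5, Krt14 and Krtdap on their brightest probe sets were lowest and highest on the same arrays as Perp. On the array where Perp was lowest they read 428, 132 and 40.4, and where it was highest 3092, 1222 and 750.4. Sfn ran only from 145 to 197 on the 12 arrays, a dim Krt14 probe set ran from 55.9 to 86.2, and Dsp was lowest on NT4 wild-type replicate 1 and highest on BDNF knockout replicate 2. The part of epithelial cells in the Perp values was not tested.

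**Figure D4:**
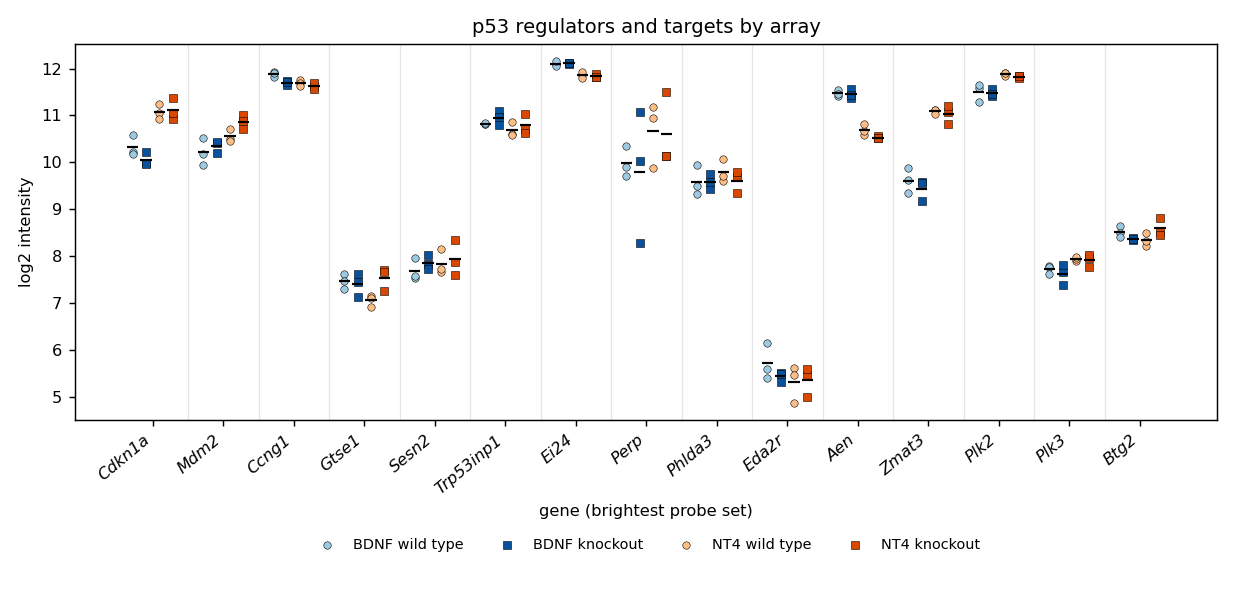
Log2 intensity of the 15 measured p53 regulators and targets on each of the 12 arrays, brightest probe set, with a bar at each group mean. Within a line wild-type and knockout points mostly overlap, Perp is scattered within every group, and Zmat3, Cdkn1a and Aen separate the NT4 line from the BDNF line.

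The difference between the BDNF and the NT4 effect was tested for every gene. It passed for 0 of 37 members, against 0.00550% of all genes, and had an unadjusted p under 0.05 for 1, against 4.96%. This was Gtse1, with a difference of −0.54 on the log2 scale, BDNF effect minus NT4 effect (−1.06 to −0.02, adjusted p = 0.853 by limma). The NT4 wild types that enter it read below the BDNF wild types, as given above. Btg2 was next, at −0.40 (−0.79 to 0.00, unadjusted p = 0.0507), the member with lower knockout arrays in the BDNF line and a higher mean in the NT4 knockout. For 30 of the 37 the interval of the difference lay between −1 and 1, against 68.7% of all genes. Over the 87 probe sets 0 passed, against 0.0111%, and 2 had an unadjusted p under 0.05, against 5.84%, Gtse1 and the Xiap probe set 1421394_a_at at −0.44 (−0.84 to −0.04, adjusted p = 0.840 by limma).

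More members passed between the lines than between genotypes. Between the wild types 4 of 37 passed the threshold, against 13.6% of all genes, 3 higher in the NT4 line and 1 lower, against 5.75% and 7.86%. Unadjusted p-values were under 0.05 for 8, against 24.9%. Beside the genes that passed, these were Bcl2 (−0.35), Ei24 (−0.24), Gtse1 (−0.40) and the dim Pmaip1 (2.51), with log2 differences in brackets. Groups did not overlap for 14 of 37 (37.8%), against 35.4%. The members' shares thus lie near the background. Strain and line cannot be told apart here. Zmat3, a p53-induced RNA-binding protein, read 935, 651 and 786 in BDNF wild types and 2231, 2229.8 and 2086 in NT4 wild types, a log2 difference of 1.48 (1.11 to 1.85, adjusted p = 0.000121 by limma). Its knockouts kept to their line, at 578, 764 and 756 in the BDNF knockouts and 1814, 2153 and 2366 in the NT4 knockouts. Aen was lower in the NT4 line, from 2738, 2979.7 and 2808 to 1538, 1623 and 1793, a log2 difference of −0.79 (−1.01 to −0.56, adjusted p = 0.000313 by limma). Its 3 dimmer probe sets differed by only −0.23 to 0.02, and with the mean of all 4 the difference was −0.26 and did not pass (adjusted p = 0.213). With the mean of probe sets Casp6 (0.68, adjusted p = 0.0107), Xiap (0.71, adjusted p = 0.000169) and Trp53inp1 (−0.47, adjusted p = 0.0115) passed beside Zmat3. Zmat3 has 1 probe set, so that setting could not change its difference. On their brightest probe sets Casp6, Xiap and Trp53inp1 differed by 0.37, 0.09 and −0.14 and did not pass. The other Casp6 probe set was dim, at 35.8 to 68.0 in the BDNF line and 38.3 to 101 in the NT4 line. The Xiap mean includes 1 probe set at 4.01, described below.

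Cdkn1a, whose promoter carries the CATG cores shown above, read 1193, 1163 and 1528 in BDNF wild types and 2132, 2413 and 1943 in NT4 wild types, with no overlap. The log2 difference was 0.75 (0.39 to 1.10, adjusted p = 0.00882 by limma), and 0.10 on its second probe set. Without the 2 wild-type arrays of low Y-linked signal it was 0.59, with an adjusted p of 0.121, and with the mean of its probe sets 0.42, with an adjusted p of 0.0554. Plk2 read 3065, 2492 and 3193 against 3858, 3695 and 3862, a log2 difference of 0.39 (0.14 to 0.64, adjusted p = 0.0439 by limma). That call was lost on leaving out any array but BDNF wild-type replicate 3, with adjusted p-values of 0.0529 to 0.138. Without the 2 arrays of low Y-linked signal the difference was 0.30 (adjusted p = 0.219), and with the mean of its probe sets 0.31 (adjusted p = 0.224). Of all 12 arrays, the 6 of the NT4 line lay above the 6 of the BDNF line for Zmat3, Cdkn1a, Plk2 and the dim Pmaip1, and below them for Aen, Ei24 and Diablo, 7 of 37 members against 16.5% of all genes.

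The probe sets of a gene often disagreed between lines. On 1450232_at Xiap read 22.7, 15.9 and 21.1 in BDNF wild types and 384, 322 and 260.0 in NT4 wild types, a log2 difference of 4.01 (3.48 to 4.55), while its brightest probe set differed by 0.09. Bcl2l1 was lower in NT4 wild types on 1420888_at by a log2 difference of −0.71 (−1.03 to −0.39), and its brightest probe set differed by −0.20. Trp53inp1 differed by −0.80 on 1416927_at (−1.17 to −0.43) and by −0.14 on its brightest. The 2 probe sets of Diablo separated the lines in opposite directions, at 3148 ± 304 against 3720.4 ± 175 in NT4 and BDNF wild types on the brighter and 642 ± 63.5 against 432 ± 88.5 on the dimmer (SD, n = 3 each). In all 7 of the 87 probe sets passed between the wild types, against 13.9% of all probe sets.

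**Figure D5:**
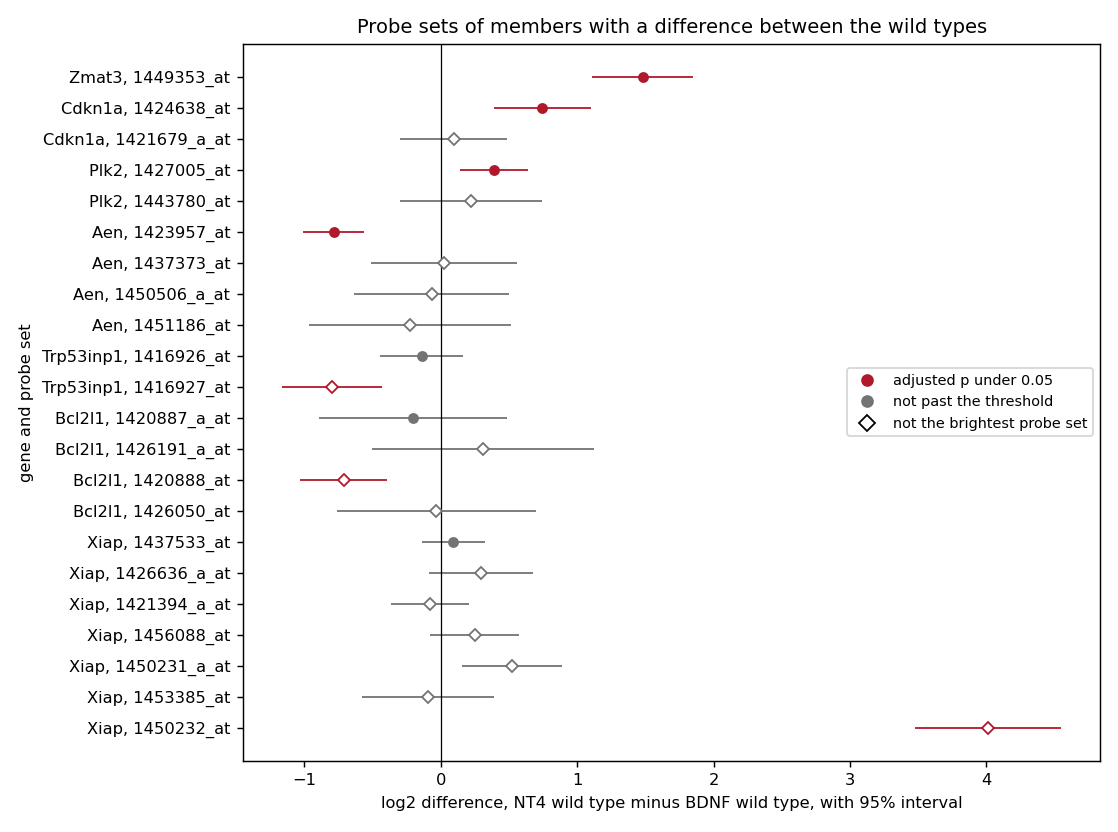
Log2 difference between NT4 and BDNF wild types, with 95% intervals, for every probe set of the 7 members that have a probe set past the threshold. Filled points are brightest probe sets, open diamonds the others, and red marks an adjusted p under 0.05. Only 1 probe set of each gene is red, and the Xiap probe set at 4.01 stands far from the other probe sets of that gene.

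Other genes of the same pathways were read from a second list. Of its 72 genes, 65 were measured, among them caspase and BCL2 genes outside the members, p53 kinases and the JNK pathway of trophic deprivation. In each knockout 0 of 65 passed, 29 were higher and 36 lower in the BDNF knockout, and 42 were higher and 23 lower in the NT4 knockout, with medians of −0.03 and 0.05. Unadjusted p-values under 0.05 were found for 6 in the BDNF knockout, against 6.09% of all genes, and for 2 in the NT4 knockout, against 4.63%. Dffa, which holds the DNA-cutting nuclease of dying cells in check, had the lowest of these. It read 1443, 1529 and 1382 in BDNF wild types and 919, 913 and 1221 in BDNF knockouts, with no overlap, a log2 change of −0.52 (−0.88 to −0.17, adjusted p = 0.530 by limma). In the authors' deposited table it has a signed fold of −1.43 and an unadjusted p of 0.0355. Its second, dim probe set differed by 0.05.

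Egln3, a prolyl hydroxylase that rises in neurons deprived of nerve growth factor, read 314, 409 and 299 in BDNF wild types and 533, 458 and 742 in BDNF knockouts. The groups did not overlap, and the log2 change was 0.75 (0.18 to 1.32, adjusted p = 0.599 by limma). Its second probe set gave 0.81 (0.09 to 1.53), and in the NT4 knockout the brightest gave 0.54 (−0.03 to 1.11). The others in the BDNF knockout were Chek2 at 0.46, Polk at −0.77, the death receptor Tnfrsf21 at −0.41 and Fadd, the adaptor of death receptors, at 0.82, where wild types ran from 239 to 641. Jun, the target of the JNK pathway, differed by −0.09 and 0.06, and no gene of the JNK list passed in either knockout. Dimmer probe sets of some other pathway genes are on the authors' deposited lists. Their signed folds are 1.26 for the JNK pathway kinase Map3k12, 1.72 for Chek1 and 2.68 for Parp1 in the BDNF list. For the JNK pathway kinase Map2k4 it is −1.2 in the NT4 list. In the NT4 line Tnf was dim, at 56.8 ± 3.08 in wild types and 71.5 ± 1.99 in knockouts (SD, n = 3 each). Its log2 change was 0.33 (0.09 to 0.58, adjusted p = 0.852 by limma). Bok, a BAX-like killer, read 619, 543 and 599.6 in wild types and 424, 523 and 421 in knockouts, a log2 change of −0.37 (−0.67 to −0.06, adjusted p = 0.852 by limma). Its signed fold in the authors' deposited table is −1.29. Of the macrophage markers, 9 of 10 were higher in the NT4 knockout, against 55.8% of all genes, and 8 of 10 in the BDNF knockout, against 44.6%. They summed to 2676 to 4371 on NT4 wild-type and 4324 to 6773 on NT4 knockout arrays. In the BDNF line they summed to 3995 to 4559 on wild-type and 4809 to 5909 on knockout arrays. The part of these markers in the Tnf values was not tested.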

How the data were processed

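Total RNA from geniculate ganglia was amplified, labelled with biotin and hybridized to 1 array per sample, per the labels' protocols. The deposited value table holds linear intensity per probe set. The scaling and background steps the authors used are not given in the sources used here, so only log2 of the values was taken, with no offset and no further normalization; the plan had assumed deposited log2 values, and the values showed a linear scale. The authors deposited 2 lists of selected probe sets with a signed fold change and a difference of means, both treated as a score, an unadjusted p-value and group mean intensity. The 12 array columns of these lists were not used.

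Of 45101 probe sets, 64 controls were removed, and 45037 were tested together with limma 3.58.1 in R 4.3.3, on all 12 arrays with 1 mean per group. The Benjamini-Hochberg adjustment ran over all 45037 p-values, with a threshold of 0.05. Intervals are 95% intervals from the moderated error. In the platform annotation 34945 probe sets had 1 gene symbol, 932 several and 9160 none, and 34741 of those with 1 symbol were found in the GRCm38.p6 gene table. A gene is given by its brightest probe set among those with 1 symbol, except for Bdnf. For Bdnf the dimmer probe set, which followed the knockout label, was used against this rule. The number of arrays limits the precision, with a median SE of 0.20 on the log2 scale for a knockout change.

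The members, the other lists and the markers were chosen with earlier results of these data known. All members could be named. Log2 changes with intervals went to members with an unadjusted p under 0.05 in a knockout contrast or in the difference of effects. They also went to the 2 of lowest p in each block of each knockout contrast. Between the wild types they went to members past the threshold. Other pathway genes with an unadjusted p under 0.05 in a knockout were named, some with the log2 change alone. Alternatives were quantile or median scaling, an offset of 16, a filter on dim probe sets, fits within a line, another variance model, a replicate block, the mean of a gene's probe sets and arrays left out. The fit was tested on simulated data.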

Additional observations from a re-analysis of the deposited data

How the results depend on the processing

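In the BDNF knockout, the NT4 knockout and the difference of effects, 0 members passed the threshold by limma under every alternative run, the range over arrays left out being 0 to 0. The 12 named knockout results were compared 251 times. None of the 12 was past the threshold in the main fit, so a comparison could only show whether a call appeared or a direction changed. No call crossed the threshold, and 2 changed direction with the mean of all probe sets of a gene, Diablo in the BDNF knockout (−0.0209) and Casp9 in the NT4 knockout (0.0293), where the dimmer probe sets go the other way. Members at an unadjusted p under 0.05 in the BDNF knockout numbered 1 with dim probe sets left out, with trend and robust variances, with the mean of probe sets and without the 2 arrays of low Y-linked signal, and 0 to 1 with an array left out. In the NT4 knockout they numbered 3 with arrays centred on the median, 0 with dim probe sets left out or the replicate block, 2 with the mean of probe sets and 0 to 3 with an array left out. For the difference they numbered 0 with quantile scaling, centring, trend and robust variances or the replicate block, 2 with the offset of 16 and 0 to 2 with an array left out. Centring moved the median of all probe sets in the NT4 knockout from 0.05 to −0.07 and in the difference from −0.07 to 0.06, and the members' medians moved with it. Their median was −0.0172 with quantile scaling and −0.0712 with centring in the NT4 knockout, and 0.0320 with quantile scaling, 0.0521 with centring and 0.0117 with dim probe sets left out in the difference. With an array left out it ran from −0.0571 to 0.00352 in the BDNF knockout, from −0.00759 to 0.114 in the NT4 knockout and from −0.0907 to 0.0142 in the difference. Between wild types it was 0.0132 with quantile scaling and −0.0937 to −0.00664 with an array left out. There 2 members passed with the replicate block and 2 without the arrays of low Y-linked signal, and 3 to 5 with an array left out, with the block the lost calls were Cdkn1a (0.62, adjusted p = 0.198) and Plk2 (0.32, adjusted p = 0.396), and unadjusted calls numbered 5 with the block and 5 to 10 with an array left out. The Bdnf change of −3.18 lost its call with only the arrays of the line and with the replicate block (adjusted p = 0.109), and ran from −3.40 to −3.01 with an array left out. The labels state no pairing of samples by replicate number. Deviations from the group means were compared between wild-type and knockout arrays of the same number. These deviations correlated at 0.03, 0.05 and −0.06 in the BDNF line and −0.16, 0.10 and −0.05 in the NT4 line. With the number as a block, calls over all probe sets went from 8 to 0 in the BDNF knockout, from 2 to 0 in the NT4 knockout, from 5 to 0 in the difference and from 6275 to 3022 between wild types. Where not stated, the cause was not tested. Dim members, Pmaip1, Fas and Eda2r above all, are limited by their low signal.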

Other observations

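Some of the other pathway genes differed between the wild types of the lines. Of 65 measured, 4 were higher and 4 lower in NT4 wild types at an adjusted p under 0.05 by limma, against 5.75% and 7.86% of all genes, and 5 of these 8 are described here, chosen after their values were seen. Atr, a kinase of the DNA damage response, read 151, 82.9 and 142 in BDNF wild types and 413, 481 and 526 in NT4 wild types on its brightest probe set, a log2 difference of 1.96, with 0.22 and 0.75 on its other probe sets. Atm, its sister kinase, went the other way, from 1062, 800.4 and 994 to 567, 357 and 419, a log2 difference of −1.11, with −0.09 on its second probe set. Chek1, the kinase that Atr activates, differed by −1.24 on its brightest and by −0.07 to 0.53 on the other 4 probe sets. Gadd45a, a stress target of p53, read 222, 424 and 249 against 891, 937 and 766, a log2 difference of 1.59. Birc5, the gene for survivin, read 415, 430.2 and 440.1 against 994, 1003 and 1159, a log2 difference of 1.29. For 3 of these 5 genes, Atr, Atm and Chek1, no other probe set showed a difference of that size.

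The other marker lists gave these median log2 changes in the BDNF and NT4 knockouts, with 0 genes past the threshold in each. Cartilage markers, of which 7 were measured, were at 0.21 and 0.69, and connective tissue markers, 6 measured, at 0.11 and 0.30. Glial markers, 4 measured, were at 0.05 and 0.02. Red cell markers, 4 measured, were at −0.0030 and 0.07.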
